A study of Sinopodophyllum hexandrum with 2 samples.

Results

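The miR482, miR2118 and miR8558 miRNAs were examined in lists of conserved miRNAs from mature leaves of Podophyllum hexandrum (GEO lists it as Sinopodophyllum hexandrum), an alpine herb used in medicine. The series holds 2 small RNA libraries, labelled treated and control. The sources used here do not give the treatment, the age of the plants or whether plants were pooled. Each library has a list of conserved miRNA names with their mature sequences. Members were all entries named miR482, miR2118 or miR8558, with or without a letter and an arm, which gave 30 of the 181 names in either list. The control list held 27 of them among 155 names and the treated list 25 among 107. These 30 names stood for 23 distinct sequences of 122. Each name begins with the code of another plant species, so the sequences may have been copied from reference entries. The lists do not show whether the reads of Podophyllum had exactly these bases. The lists give no abundance, so a level or fold cannot be given, and with 1 library a group no difference has a replicate check. Of the 117 entries in the count table of predicted loci, 0 were named for these families.

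The miR482 and miR2118 families are known for pairing with the stretch of NBS-LRR transcripts that encodes the P-loop, the nucleotide-binding motif of this large class of plant disease resistance proteins. Their usual 22-nt length is known to trigger the production of phased secondary siRNAs from the cleaved transcript, which spreads silencing to related resistance genes. In tomato, miR482 members are known to differ from each other mainly at bases that face the last base of P-loop codons. In grasses, miR2118 is better known for triggering phased siRNAs from non-coding transcripts in anthers.

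The sequences fell into a main form, a form that starts further along the same consensus, and the opposite strand. The sequence closest to the others, here called the central sequence, was listed under 3 names, vvi-miR482 (grape), pab-miR482c (Norway spruce) and pde-miR482a (a pine), and all 3 names were in both lists. It is shown first, with its seed (bases 2 to 8, the part that leads target pairing) in capitals, and is followed by a main-form sequence for each of the other seeds.
vvi-miR482: uCUUUCCUacuccucccauucc
pab-miR482b: uCUUCCCUauuccucccauucc
pgi-miR482a: uCUUGCCAauuccucccauucc
gra-miR482: uCUUUCCAauuccucccauucc
csi-miR482b: uCUUGCCCaccccucccauucc
ptc-miR482c-3p: uCUUUCCGaguccucccauacc
The first 5 of these sequences were in both lists, and the poplar entry ptc-miR482c-3p was in the control list alone.

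The second form, shown for how the family numbers mix within it, held 6 sequences. They are printed with their seeds in capitals.
mtr-miR2118: uUACCGAUuccacccauuccua
stu-miR482b-3p: uUACCGAUuccccccauuccaa
ppe-miR482e: uUGCCUAUuccucccaugccaa
ppe-miR482a-3p: uUUCCGAAaccucccauuccaa
pgi-miR2118: uUUCCUAUuccacccaucccau
atr-miR8558b: uUUCCGAUcccgcccaugccgu
All 6 began at position 3 of the central sequence and ended 2 nt beyond its 3' end. The stretch CCCAU, which starts at base 15 of the central sequence, starts at base 13 in each of them. The form includes both miR2118 entries, the single miR8558 entry and 3 entries numbered miR482.

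The third set was 2 sequences of 21 nt from the opposite strand, with their bases 2 to 8 in capitals.
hbr-miR482b: gAAUGGGCgguuugggaaaga
mdm-miR482d: aAUGGAAGgguaggaaagaag
Neither name carries an arm. The rubber tree entry hbr-miR482b matched the reverse complement of the central sequence at 17 bases and the central sequence itself at 4. For the apple entry mdm-miR482d these numbers were 15 and 3. The partner strand of a miRNA duplex is usually degraded and is not the strand known for targeting NBS-LRR genes.

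Most members were in both lists. Of the 23 distinct sequences, 16 were in both, 5 in the control list alone and 2 in the treated list alone. The share in both was 69.6% (exact 95% interval 47.1% to 86.8%), beside 41.0% of all 122 listed sequences and 34 of the 99 sequences of other families. By name it was 73.3% (22 of 30), beside 44.8% of all 181 names. The difference between members and other families was not tested, since entries of a family resemble each other and a single read sequence could match several of them if the matching tolerated mismatches.

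miR482 had more names and more distinct sequences than any of the other 46 families listed. Its 25 control names stood for 19 sequences and its 22 treated names for 15, of which 14 were shared. For miR2118, the ginseng entry pgi-miR2118 was in both lists and the barrel medic entry mtr-miR2118 in the treated list alone. The single miR8558 entry, atr-miR8558b of Amborella, was in both.

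**Figure D1:**
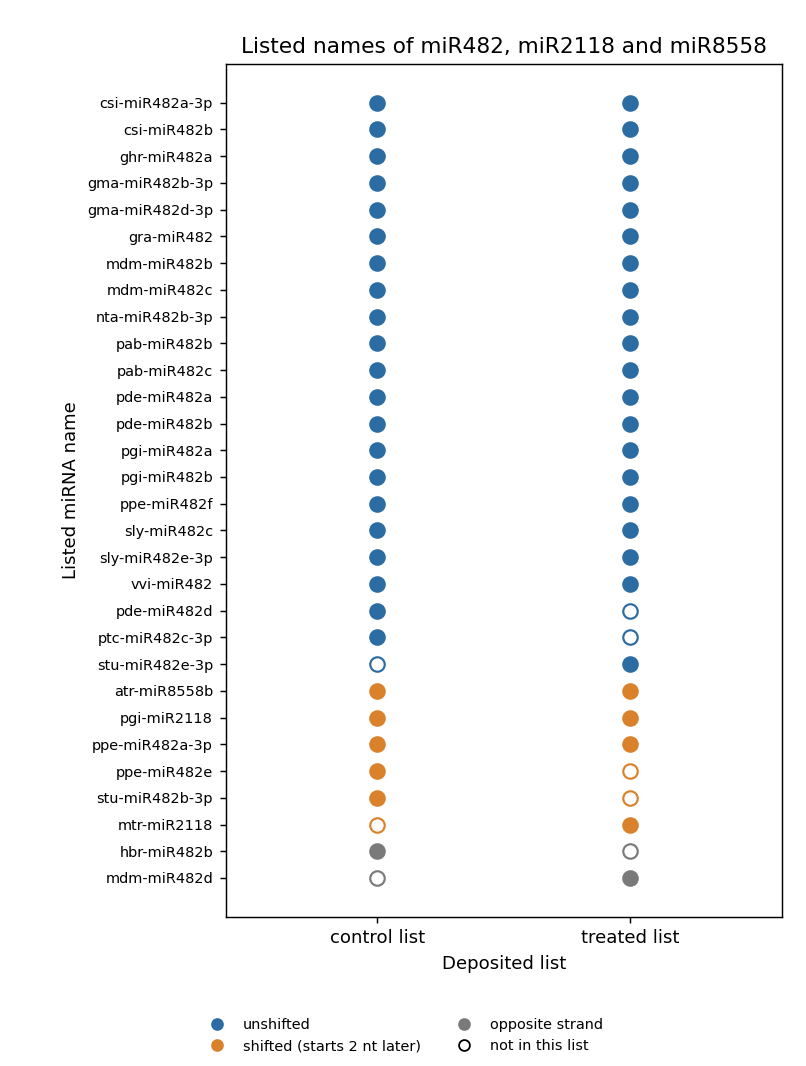
Listed names of the 3 families (vertical axis) in the control and treated lists (horizontal axis); filled circles mark a name in that list, open circles one outside it, and colours mark the form of the sequence. The 22 names in both lists have 2 filled circles, 5 names are filled for the control list alone and 3 for the treated list alone.

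The main form recurred at 13 of its 15 sequences. All 15 belonged to the control list, and the 2 outside the treated list were pde-miR482d and ptc-miR482c-3p. The second form had 5 control and 4 treated sequences with 3 shared, and the opposite strand had 1 sequence in each list and 0 shared. With 6 and 2 sequences in the smaller sets, the exact 95% intervals for the shared percentage were 11.8% to 88.2% and 0% to 84.2%. That of the main form, 59.5% to 98.3%, overlapped both. The intervals are a guide to counting error alone, and the difference between forms was not tested.

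The 5 sequences in the control list alone were all numbered miR482. They were the pine entry pde-miR482d, the poplar entry ptc-miR482c-3p, the potato entry stu-miR482b-3p, the peach entry ppe-miR482e and the rubber tree entry hbr-miR482b. In the treated list alone were mtr-miR2118 and mdm-miR482d. The potato name stu-miR482e-3p was also in the treated list alone, but its sequence, shared with the tomato entry sly-miR482c, was in both lists. The difference for this name therefore lies in the naming and not in the sequence. Of all 50 sequences common to the lists, 3 had differing sets of names, and this was the single case among the members.

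Some sequences in 1 list had a close relative in the other. The treated mtr-miR2118 and the control stu-miR482b-3p, printed above, have the same seed and differ by 2 substitutions, A12C and U21A, counted from the 5' end with the mtr-miR2118 base first. This was also the smallest distance between members of different number. The control entry ptc-miR482c-3p was 2 substitutions, G8U and G10C, from the cotton entry ghr-miR482a of the treated list. The first of these lies in the seed, and the seed of ptc-miR482c-3p was not in the treated list.

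By edit distance, the remaining sequences in 1 list lay further away. The pine entry pde-miR482d was 4 substitutions from gra-miR482 of another cotton species and had the same seed. It was also 4 edits from the central sequence, ghr-miR482a and mdm-miR482c, which are in both lists and have a different seed. The peach entry ppe-miR482e was 4 substitutions from pgi-miR2118, with a different seed. When the 2-nt shift was allowed for, it was closer to main-form sequences of the treated list. It had 2 mismatches over 20 bases to pab-miR482b and 2 to pgi-miR482a, beside 6 edits to each. The opposite-strand entries were 8 edits from each other, and each was the nearest to the other across the lists. In all, 3 of the 7 sequences in 1 list had a seed that was present in the other list, and 4 did not.

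The members had 13 distinct seeds, of which 12 were found among control sequences, 10 among treated sequences and 9 in both lists. The most common was CUUUCCU, that of the central sequence, with 5 sequences under 8 names, all 5 in both lists. CUUCCCU and CUUGCCA followed with 3 sequences each, also all in both. CUUUCCA had gra-miR482 in both lists and pde-miR482d in the control list. The main form had 6 seeds, the second form 5 and the opposite strand 2, with no seed common to any pair of these sets. UACCGAU was the seed shared across family numbers, by mtr-miR2118 and stu-miR482b-3p. Of the 99 sequences of other families, 0 had any of these 13 seeds.

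The main form varied at 8 of its 22 positions and was the same in all 15 sequences at the other 14. In the central sequence below, capitals mark the variable positions.
vvi-miR482: UcuuUccUaCUccUCccauUcc
Across the other 14 sequences there were 40 differences from the central sequence, from 1 to 6 in a sequence with a median of 3. Position 10 differed in 9 of the 15 sequences, position 11 in 8, and positions 5 and 8 in 7 each. Position 20 differed in 4, position 14 in 3, and positions 1 and 15 in 1 each. The 4 positions 5, 8, 10 and 11 held 77.5% of the differences.

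Of the 8 variable positions, 5 followed a spacing of 3 nt. Positions 5, 8, 11, 14 and 20 lie at multiples of 3 from each other and held 29 of the 40 differences, or 72.5%, although only 7 of the 22 positions belong to that series. Its other members, positions 2 and 17, were constant. Position 10 held 9 of the remaining 11 differences. The other 2 were the U1C of pde-miR482d and the C15U of the tobacco entry nta-miR482b-3p. By region, the seed held 14 differences, positions 9 to 15 held 21, positions 16 to 22 held 4 and the first base held 1. These differences are between reference names of several species and are not independent events, so no test was made.

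The second form varied at the same places when read in the coordinates of the central sequence. Over the 20 positions that overlap, its 6 sequences had 22 differences from the central sequence, at positions 5, 8, 10, 11, 14 and 20, and matched it at the other 14. Positions 5, 8, 11, 14 and 20 held 16 of these, and position 10 held 6. At position 10 the second form itself varied little, with U in 5 sequences and A in 1, where the central sequence has C. Since the second form starts 2 nt later, position 5 of the central sequence is base 3 of mtr-miR2118 and its relatives, and position 8 is base 6.

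The bases at these positions differed in frequency between the forms. At position 8, 4 of 6 second-form sequences had G, beside 1 of 15 in the main form. At position 5, A was found in 2 of 6 and in 0 of 15. At position 10, 6 of 15 main-form sequences had C and 7 had U, whereas 0 of 6 in the second form had C and 5 had U. The treated list held 13 of the main-form sequences, varying at 7 positions, and the control list held all 15, varying at 8. The extra position in the control list was the first base, through pde-miR482d.

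**Figure D2:**
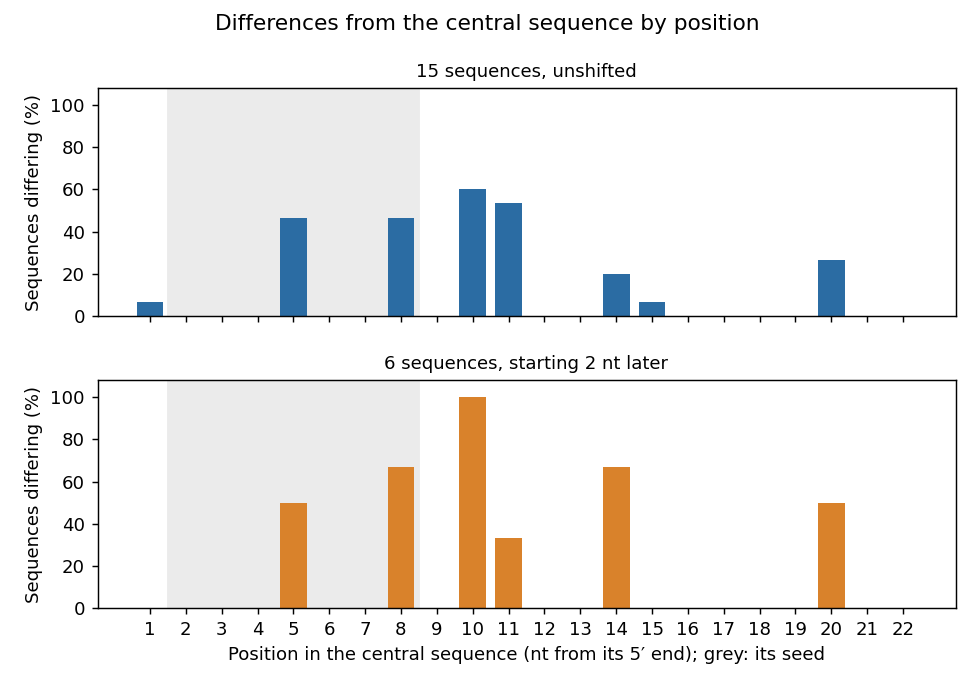
Percent of sequences that differ from the central sequence (vertical axis) at each of its 22 positions (horizontal axis), for the 15 main-form sequences (upper panel, unshifted) and the 6 sequences that start 2 nt later (lower panel). Bars stand at positions 5, 8, 10, 11, 14 and 20 in both panels and at 1 and 15 in the upper panel; grey marks bases 2 to 8 of the central sequence.

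Single substitutions linked 5 pairs of main-form sequences, at positions 5, 10, 11, 14 and 20, 1 pair at each. From the central sequence, U20A gives ghr-miR482a, listed also as the tomato entry sly-miR482e-3p, and U14A gives the peach entry ppe-miR482f. The ginseng entry pgi-miR482a and gra-miR482 differed by G5U, and thereby in the seed. The sweet orange entry csi-miR482a-3p differed from pab-miR482b by G11U, and the apple entries mdm-miR482c and mdm-miR482b by A10U. Each of these 5 pairs exchanged a purine and a pyrimidine, and both sequences of each pair were in both lists. The farthest main-form sequence from the central one was nta-miR482b-3p, with 6 differences, and it was the one sequence of both forms without CCCAU.

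The family number followed the sequence forms only in part. All 15 main-form sequences were numbered miR482, and the second form held 3 miR482 entries beside every miR2118 and miR8558 entry. Joined at an edit distance of at most 5, the sequences gave 4 groups, which were the 15 main-form sequences, the 6 of the second form and each opposite-strand sequence by itself. Within the main form the 105 pairs were 1 to 7 edits apart with a median of 4, and within the second form the 15 pairs were 2 to 6 apart with a median of 5. Between the forms the 90 pairs were 6 to 10 edits apart with a median of 8. When bases were compared at the offset of best match in place of edits, the median between the forms was 4 mismatches, and both forms joined into 1 group at up to 5 mismatches. The 2-nt shift itself adds edits to each pair between the forms. At the best offset, ppe-miR482a-3p had 3 mismatches to the central miR482 sequence, beside 5 to mtr-miR2118 and 6 to pgi-miR2118. For ppe-miR482e these numbers were 3, 5 and 4. Counts to the central sequence cover 20 bases and those to the miR2118 entries 22, so they are not strictly alike. The last 2 bases of the second form lie beyond the central sequence. The 4 mismatches of ppe-miR482e to pgi-miR2118 include A22U, which lies there. Of the 3 miR482 entries of the second form, stu-miR482b-3p alone had fewer mismatches to a miR2118 entry, 2 to mtr-miR2118, than to the central sequence, 4. The miR8558 sequence had 5 mismatches to the central sequence at its offset, U8G, C10U, U11C, U14G and U20G, beside 3 or 4 in the other second-form sequences.

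**Figure D3:**
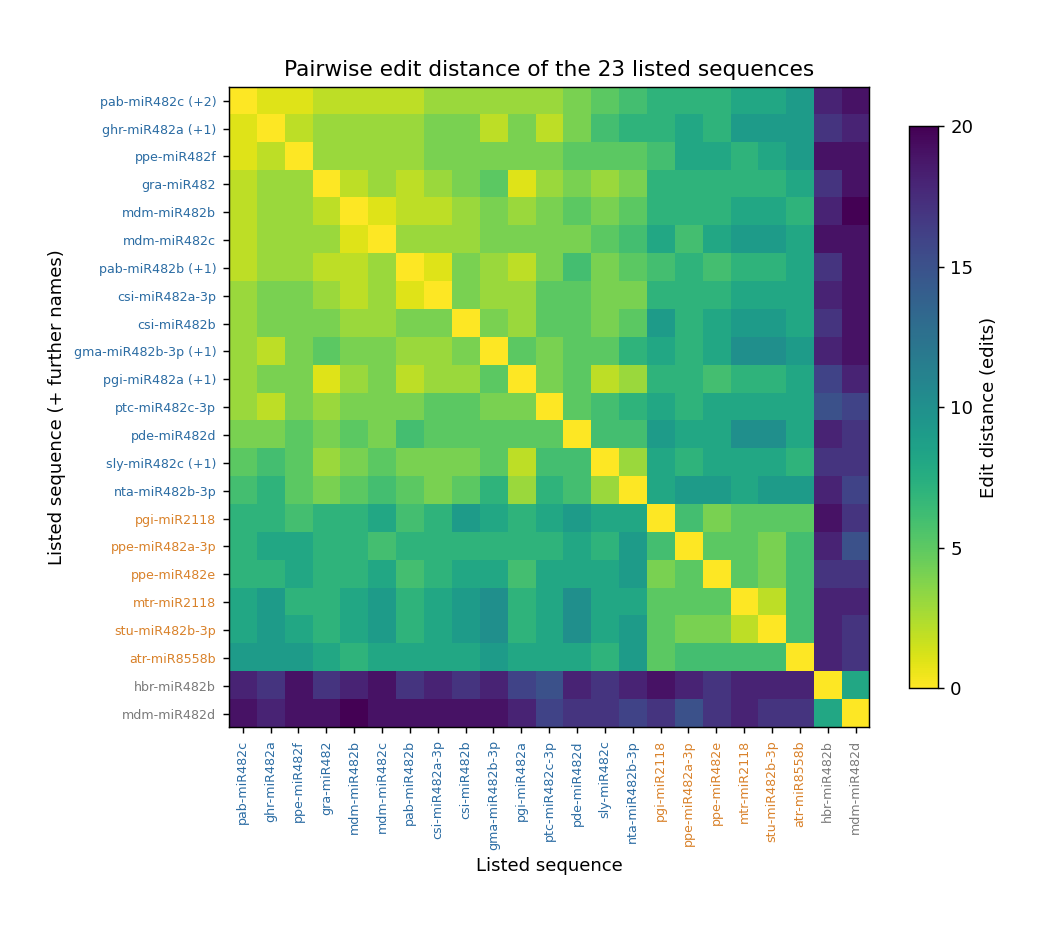
Edit distance (colour, in edits) between each pair of the 23 distinct sequences, named on both axes by the first of their names with the number of further names in brackets; label colours are blue for the main form, orange for the second form and grey for the opposite strand. The main form is 1 to 7 edits apart within itself and 6 to 10 edits from the second form.

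No sequence of another family came close. Of the 99 others, 0 lay within 5 edits of a member, whereas 21 of the 23 members lay within 5 edits of another member. The nearest was the rice entry osa-miR5075, at 7 edits from atr-miR8558b. CCCAU, searched on the strand as listed, was in 20 of the 23 members and in 1 of the 99 other sequences, the 24-nt potato entry stu-miR8016 of the control list. Its reverse complement AUGGG was in hbr-miR482b and in 1 of the other 99 sequences, the peach entry ppe-miR6260 of the treated list. Members resemble each other, so these counts are a description.

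The opposite-strand sequences could be set against main-form sequences as duplexes. The best partner of hbr-miR482b was mdm-miR482c, with 18 Watson-Crick pairs, 1 G-U pair and 2 unpaired positions over 21 facing bases. The best partner of mdm-miR482d was ghr-miR482a, with 15 Watson-Crick pairs, 1 G-U pair and 3 unpaired positions over 19. Both partners were in both lists, and in each pair the 2 sequences were named for different plants. Whether such duplexes exist in this plant was not tested.

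Members were mostly of 22 nt with a 5' U, the base known to favour loading into AGO1. In the control list 95.2% of the member sequences were of 22 nt (20 of 21; exact 95% interval 76.2% to 99.9%), beside 19.8% of the sequences of other families (16 of 81; 11.7% to 30.1%). In the treated list these shares were 94.4% (17 of 18; 72.7% to 99.9%) and 23.1% (12 of 52; 12.5% to 36.8%). The single 21-nt member in each list was the opposite-strand sequence. The members made up 55.6% of the 22-nt control sequences and 58.6% of the 22-nt treated ones. Since length is fixed in a reference entry and members resemble each other, no test was made.

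A 5' U was found in 19 of 21 control members (90.5%) and 17 of 18 treated members (94.4%), beside 55.6% and 57.7% of other sequences. The exceptions were pde-miR482d with C and hbr-miR482b with G in the control list, and mdm-miR482d with A in the treated list. The mean GC content of the control members was 52.3% ± 5.47 (SD, n = 21 sequences) and that of the treated members 50.9% ± 5.71 (SD, n = 18 sequences). It ranged from 42.9% in mdm-miR482d to 63.6% in atr-miR8558b, csi-miR482b and pde-miR482d.

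**Figure D4:**
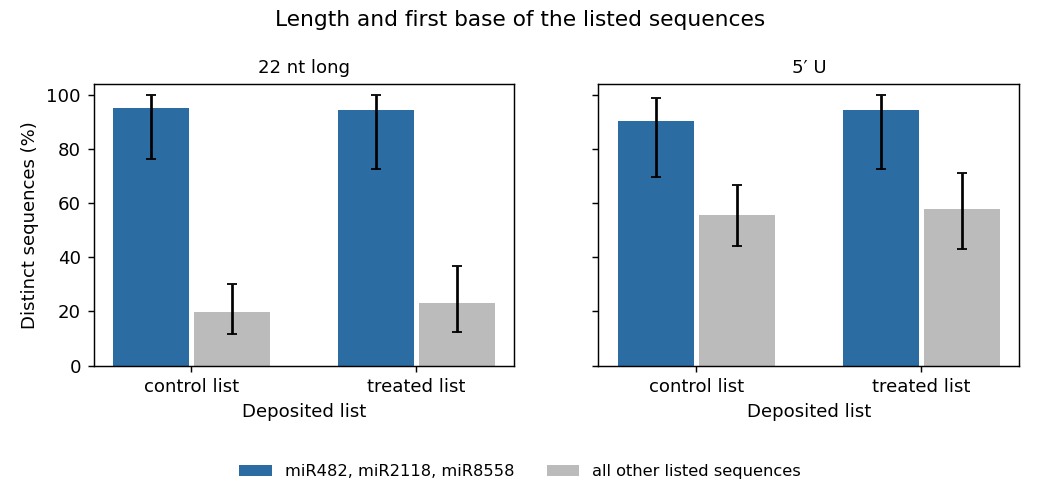
Percent of distinct sequences (vertical axis) that are 22 nt long (left) or begin with U (right) in the control and treated lists, for miR482, miR2118 and miR8558 (blue) and all other listed sequences (grey); bars are shares and lines exact binomial 95% intervals. At 22 nt the members stand at 95.2% and 94.4%, and the other sequences at 19.8% and 23.1%.

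The member names carried 17 of the 42 species codes in the lists. By codes, 24 names were from core eudicots in 14 species, 5 from conifers (spruce and pine) and 1 from Amborella. No member carried aqc, the code of Aquilegia, which belongs to the same order as Podophyllum, although 2 names with that code were listed for other families. For 10 species the same member names were in both lists. These included ginseng with 3 names, and sweet orange, soybean, spruce and tomato with 2 each. The matching count over all 42 codes was not computed, so this is not shown to be particular to the members. The 7 species whose names differed were peach and pine, each with 3 control and 2 treated names, apple with 2 and 3, potato with 1 different name in each list, poplar and rubber tree in the control list alone, and barrel medic in the treated list alone. The arm was given as -3p in 9 names, 8 of the control and 7 of the treated list, as the 5p arm in 0, and not at all in 21.

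Some member sequences were listed under several names. Besides the central sequence, 5 had 2 names each, and all 6 were in both lists. Of the 17 sequences with a single name, 10 were in both lists. The exact 95% intervals for these shares, 54.1% to 100% and 32.9% to 81.6%, overlap. Among all 122 listed sequences the share in both lists was 41.0%. The share among all listed sequences with several names was not computed, so this is not shown to be particular to the members. Of the 6 member sequences with several names, the central sequence joined grape with spruce and pine, and another joined cotton with tomato. The other 4 stood under names of the same plant (soybean, ginseng) or of related plants (tomato with potato, spruce with pine).

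Other miRNA families linked to resistance genes were looked for beside the members. Of 11 such families, among them miR472, miR1507, miR2109 and miR6019, 0 were in either list. Of 9 other families known for triggering secondary siRNAs, or related to such triggers, 4 were listed and 5 were not. miR3627 was in both lists with 3 control and 2 treated sequences, 1 of them shared, and all 4 of its sequences were of 22 nt. miR4376 was in both lists, with its 22-nt sequence shared and a 21-nt sequence in the control list alone. The counts for miR3627 and miR4376 pool both arms, with ppe-miR3627-3p and gma-miR4376a-3p among the entries. miR390, known for its part in making TAS3 siRNAs, had 2 sequences of 21 nt and miR858, known for MYB targets, had 1, all in the control list alone. Such entries were common, since 47 of the 99 sequences outside the members were in the control list alone, and 18 in the treated list alone. Because the reads behind each list are unknown, a family that is not listed may still be present in that library. The sources used here also do not show whether this plant has the families that were not listed, so 0 of 11 is a description.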

How the data were processed

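Total RNA of mature leaf was made into small RNA libraries with a NEBNext kit and read from a single end on a HiSeq instrument, according to the labels. The submitters' processing notes list cutadapt, which trims adapters, with no version number. The sources used here do not give the mapper, the reference miRNA collection, the mismatches allowed or any read minimum. The deposited lists hold names and mature sequences with no score or abundance, and a list was assigned to a library by the code it shares with the library's title. The deposited read counts cover predicted loci; their names were searched for the 3 families and their values were not used.

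Members were chosen by the family number in the name. Members, lists and comparisons were chosen with earlier results of these data known. Edit distances were computed with edlib 1.3.9.post1 in Python 3.11.15. The central sequence was the 22-nt member with the most position-by-position matches to the other 22-nt members. Every member was placed against it without gaps at the offset from -3 to 3 with the most matches. A sequence with more matches to the reverse complement of the central sequence was called opposite strand. The offset search and the edit distance were tested on simulated sequences of the same strand. The opposite-strand call and the choice of the central sequence were not tested in this way. Named entries were those of miR2118 and miR8558, those in 1 list, the central sequence, the nearest pair across family numbers and the nearest other sequence. Entries named beyond these were chosen after their values were seen. Shares carry exact binomial 95% intervals (Clopper-Pearson, scipy 1.17.1). Listed sequences are related to each other, so the intervals are a guide to counting error and no test was made. Alternatives were names in place of sequences, near matches, miR482 alone, other distance limits, and leaving out the opposite strand.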

Additional observations from a re-analysis of the deposited data

How the results depend on the processing

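The share of member sequences in both lists, 69.6%, stayed within its counting interval with names in place of sequences (73.3%), with sequences within 1 edit counted as shared (69.6%), with miR482 alone (70.0%, 14 of 20) and without the opposite strand (76.2%). Leaving out names of the 5p arm changed nothing, since 0 members carry that arm. Without the opposite strand, all member sequences were of 22 nt in both lists (100%), and all began with U in the treated list (100%) and 95.0% in the control list; this follows from which sequences were removed. Shares per name moved by less than their intervals. The number of sequence groups was 4 at a distance of at most 5 edits, 9 at most 3 and 3 at most 7. With up to 5 mismatches at the best offset in place of edits it was 3. Without the opposite strand it was 2 by edits and 1 by mismatches. Variable positions numbered 8, also with both forms together, and 7 among main-form sequences in both lists. The alternatives without the opposite strand and with mismatches at the best offset were chosen after seeing the data. No paired analysis was possible because each group had 1 library. The lists hold no counts, so depth and detection limits are unknown.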
